A study of Mus musculus with 5 samples.

Results

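The genes described here are 10 genes used as markers of embryonic macrophages and of white blood cells in general: Csf1r, Mrc1, C1qa, C1qb, Cd68, Lyz2, Ptprc, Laptm5, Coro1a and Tyrobp. They were chosen by symbol, with earlier results of these data known, and every probe set that the array annotation assigned to exactly 1 of them was kept. This gave 18 probe sets among 22626, and 10 genes among 12393. The embryos were wild type and at stage E10.5, and the dissected piece held the pharyngeal arches, or, in another of the labels, the second heart field. The strain was 129P2/OlaHsd after 2 generations of backcross to C57BL/6, no treatment is named, and all 5 samples form 1 group, so that no contrast between conditions exists. Each sample was a separate tissue isolate, whose 10 ng of RNA was amplified and hybridised to an Affymetrix Mouse Genome 430A array. Litters are not given. The p-values below concern no spread beyond these 5 isolates, and limma moderates each variance towards that of probe sets of like signal.

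Macrophages of the early embryo arise in the yolk sac, enter the embryo with the first circulating blood and spread through its tissues, where they take up dying cells. The receptor encoded by Csf1r binds the growth factors Csf1 and Il34, on which these cells depend. They carry scavenger and lectin receptors such as Mrc1, lysosomal membrane proteins such as Cd68, and C1q, the recognition subunit of complement, whose chains are encoded by C1qa, C1qb and C1qc. Tyrobp is an adaptor that passes signals from surface receptors to the kinase Syk through an activation motif called the ITAM.

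Signals are in the scaled units of the deposited table. The background level of an array was the 95th percentile of 179 probe sets of 154 genes of sensory receptors, keratin-associated proteins, milk caseins, interferons, defensins and other gland, placental and sperm products, and it lay at a signal of 17.5, 15.5, 18.3, 22.8 and 23.4 in replicates 1 to 5. The excess over background is the log2 signal minus the log2 level of the same array. Its SE is limma's moderated SE, which draws the variance of a probe set towards that of probe sets of like signal. A probe set was called above background at an adjusted p below 0.05 in limma's one-sided test, and a gene if any of its probe sets was. The median signal per array ran from 28.1 to 32.2, and the arrays differed from each other by a median of 0.24 to 0.38 log2 units over 12792 probe sets. Of 8 defining genes of crest and second heart field, 5 were above background: Isl1, Prrx1, Twist1, Pax3 and Crabp1. Dlx5, Hand2 and Tbx1 were not, and the mean signals of the 8 ran from 8.24 to 2740. Over all genes 54.1% were above background, so the count alone does not mark the tissue. Defining genes of the labelled tissue thus also missed the call, and a gene not called need not be absent. The tissue was measured whole, so fewer cells of a type and less RNA per cell cannot be told apart.

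Of the 10 genes, 3 were above background: Coro1a, Mrc1 and C1qb. That is 30%, beside 54.1% of all genes, and the median excess of the genes by their probe set of largest excess was -0.37 log2 units, beside 0.87 over all genes. By probe set, 4 of 18 were called, beside 50.2% of all probe sets, and 3 of 18 lay above the level in every array, beside 48.4%. The other 7 genes, Csf1r, C1qa, Cd68, Lyz2, Ptprc, Laptm5 and Tyrobp, were not called by any of their probe sets. None of the 8 defining macrophage genes Adgre1, Cx3cr1, Cd14, Fcgr1, Aif1, Spi1, Trem2 and Itgam was called by limma either, and 0 had an unadjusted p below 0.05. The data thus do not bear out the cell type after which the 10 genes are named, and they are called here by their symbols. Poor binding by a probe set also gives a low signal, so the transcripts may still be present. Control probe sets at the 3′ end of Actb were 3.36 to 4.82 times as bright as those at its 5′ end, most so in replicate 4. For Gapdh the ratio ran from 2.78 to 3.73, highest in replicate 1. The part of this 3′ bias in the low signals was not tested.

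**Figure D1:**
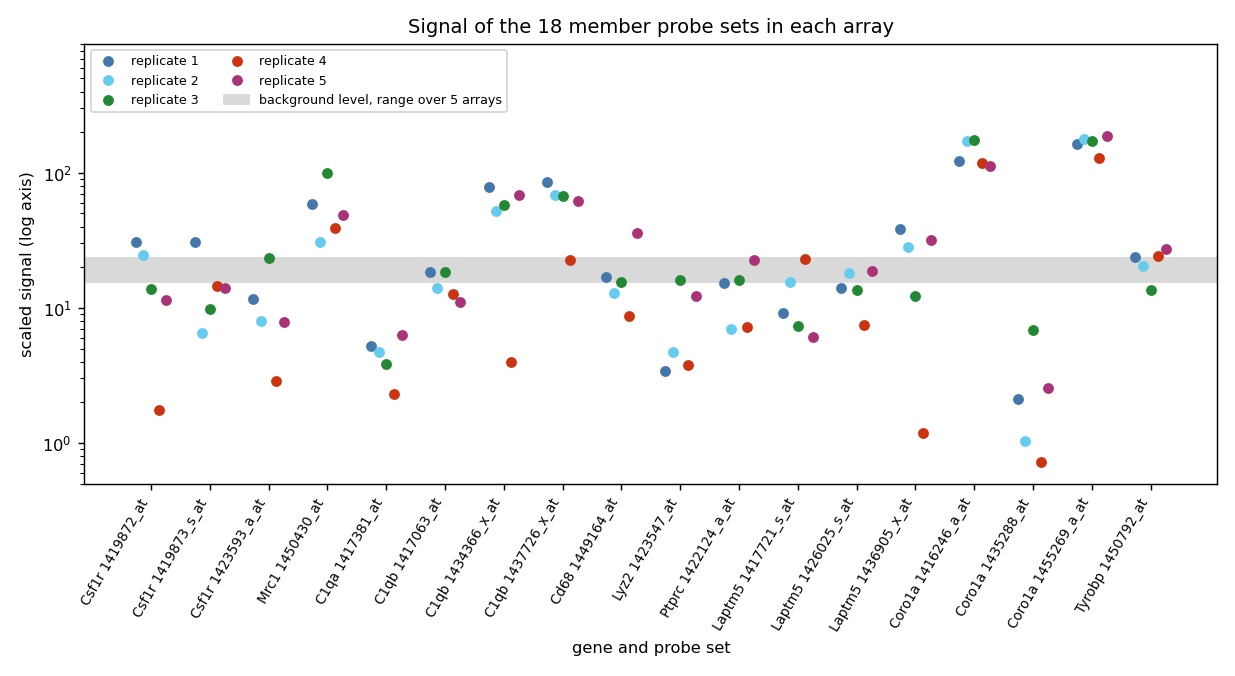
Scaled signal on a log axis for each of the 18 probe sets of the 10 genes (horizontal axis), with 1 point per array and the grey band giving the range of the background level over the 5 arrays, 15.5 to 23.4. Both bright Coro1a probe sets lie above the band in every array, Mrc1 does so too, and the x-type C1qb probe sets lie above it in every array but replicate 4.

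The upstream sequence of the 3 genes above background is shown because they are the ones that were called, and because PU.1, the product of Spi1, is a main regulator of macrophage genes. PU.1 binds sites with the core GAGGAA, which was searched on both strands (GAGGAA or TTCCTC) and is in capitals. Each sequence runs 5′ to 3′ on the gene's strand, from 250 bases before the annotated start to 50 bases after it, from RefSeq on GRCm38.p6. Coro1a has 2 annotated starts.
Mrc1 chr2:14229164-14229463 (+ strand): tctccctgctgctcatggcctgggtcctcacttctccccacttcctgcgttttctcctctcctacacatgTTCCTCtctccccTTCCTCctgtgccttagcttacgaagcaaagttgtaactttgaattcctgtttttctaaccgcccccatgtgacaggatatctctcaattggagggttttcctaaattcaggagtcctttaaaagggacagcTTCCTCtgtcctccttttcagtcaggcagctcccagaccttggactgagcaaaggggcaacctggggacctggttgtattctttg
C1qb chr4:136886151-136886450 (- strand): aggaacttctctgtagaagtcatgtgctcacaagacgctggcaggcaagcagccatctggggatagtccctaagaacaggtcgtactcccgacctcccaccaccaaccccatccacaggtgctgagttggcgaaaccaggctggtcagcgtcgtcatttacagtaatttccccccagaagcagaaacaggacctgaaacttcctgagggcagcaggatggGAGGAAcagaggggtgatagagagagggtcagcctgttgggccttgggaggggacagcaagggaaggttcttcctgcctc
Coro1a chr7:126704767-126705066 (- strand): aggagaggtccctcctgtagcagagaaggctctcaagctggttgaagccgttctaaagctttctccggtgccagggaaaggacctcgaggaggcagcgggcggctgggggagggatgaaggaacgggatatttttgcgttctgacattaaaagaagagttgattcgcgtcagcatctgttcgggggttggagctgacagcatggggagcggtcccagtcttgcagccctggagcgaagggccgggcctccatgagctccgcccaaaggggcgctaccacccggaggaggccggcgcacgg
Coro1a chr7:126704171-126704470 (- strand): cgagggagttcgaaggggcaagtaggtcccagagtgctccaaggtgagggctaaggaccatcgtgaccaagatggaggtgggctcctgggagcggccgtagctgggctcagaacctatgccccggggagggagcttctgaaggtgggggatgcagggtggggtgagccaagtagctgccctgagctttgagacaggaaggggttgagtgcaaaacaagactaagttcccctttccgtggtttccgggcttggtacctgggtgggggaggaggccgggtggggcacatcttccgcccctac
The core occurred 3 times in the Mrc1 window, 35, 167 and 180 bases before the start, and once in the C1qb window, 30 bases before it. Neither Coro1a window held it. Of the 10 genes, 7 had an entry in the promoter table, with 9 windows, and 5 of the 9 windows held the core at least once, one each of C1qb, Cd68, Laptm5, Mrc1 and Ptprc. Among 32851 windows of the same length over all genes, 28.3% held it. A match is only a run of letters: Cd68, Laptm5 and Ptprc have a match and were not above background, and both Coro1a windows lack one. The Coro1a windows held 10 and 19 CpG pairs, the C1qb window 6 and the Mrc1 window 3, beside a median of 7 over all windows.

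Coro1a, which encodes the actin-binding protein coronin 1A of leukocytes, gave the firmest signal of the 10 genes relative to background. Its probe set 1455269_a_at stood at 164, 177, 172, 128 and 188 in replicates 1 to 5, a mean of 165.7 ± 22.8 (SD, n = 5). The values lay close together, with replicate 4 lowest, and all 5 were above the level. The excess was 3.10 ± 0.18 log2 units (SE; adjusted p = 1.63e-18, limma). The second probe set, 1416246_a_at, gave 123.3, 172, 175, 117.9 and 113, with replicates 2 and 3 above the other arrays. Its mean was 140.3 ± 30.5 (SD, n = 5) and its excess 2.84 ± 0.19 (SE; adjusted p = 1.24e-16, limma). The third, 1435288_at, was near the floor of the scale, at 2.13, 1.04, 6.81, 0.727 and 2.57, with an excess of -3.21 ± 0.60 (SE). The probe sets of Coro1a thus disagreed on whether the gene had a signal, and the dim one is annotated to the same source transcript as the brightest. Neurons are another source of RNA in this tissue, with 15 of 15 measured neuron genes above background, and their part in the Coro1a signal was not tested.

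Mrc1, the mannose receptor that takes up glycoproteins, has 1 probe set, which gave 59.1, 30.5, 98.9, 39.2 and 48.9 in replicates 1 to 5. Replicate 3 was highest and replicate 2 lowest, a 3.24-fold span, and every array lay above its background level. The mean was 55.3 ± 26.6 (SD, n = 5) and the excess 1.40 ± 0.22 log2 units (SE; adjusted p = 3.55e-07, limma).

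C1qb, the B chain of C1q, was called through 1 of its 3 probe sets. Probe set 1437726_x_at gave 84.9, 68.8, 67.2, 22.6 and 62.3 in replicates 1 to 5, with replicate 4 far below the other arrays and just under its own background level. The excess was 1.54 ± 0.26 log2 units (SE; adjusted p = 4.61e-06, limma). Probe set 1434366_x_at gave 78.4, 51.9, 57.7, 3.96 and 68.6, again with replicate 4 lowest, and was not called (excess 0.92 ± 0.84, SE; adjusted p = 0.309, limma). Without replicate 4 it was called, with an excess of 1.78 (adjusted p = 9.47e-13, limma). The plain probe set 1417063_at gave 18.3, 14.0, 18.4, 12.7 and 10.98, around the level in replicates 1 to 3 and below it in replicates 4 and 5, and was not called (excess -0.40 ± 0.36, SE). The ending x marks probe sets in which some probes also match other transcripts, and 61.4% of all x-type probe sets were above background, so the call of C1qb rests on a less specific type of probe set.

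The calls of C1qb and Mrc1 held with the level at the 99th percentile of the reference. The excess there was 0.78 for C1qb 1437726_x_at and 0.64 for Mrc1 (adjusted p = 0.000189 and 0.00286, limma). They were lost with a wider reference. Against a stricter level, which adds casein kinases, interferon receptors and lymphocyte receptor segments to the reference and lies at 84.4 to 129 in signal, the excess was -1.05 for Mrc1 and -0.91 for C1qb 1437726_x_at, and Coro1a was the 1 gene still called, through 1455269_a_at. At that level 27.9% of all genes were called. The added genes were not checked for expression in this tissue, so the stricter level need not be a background.

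**Figure D2:**
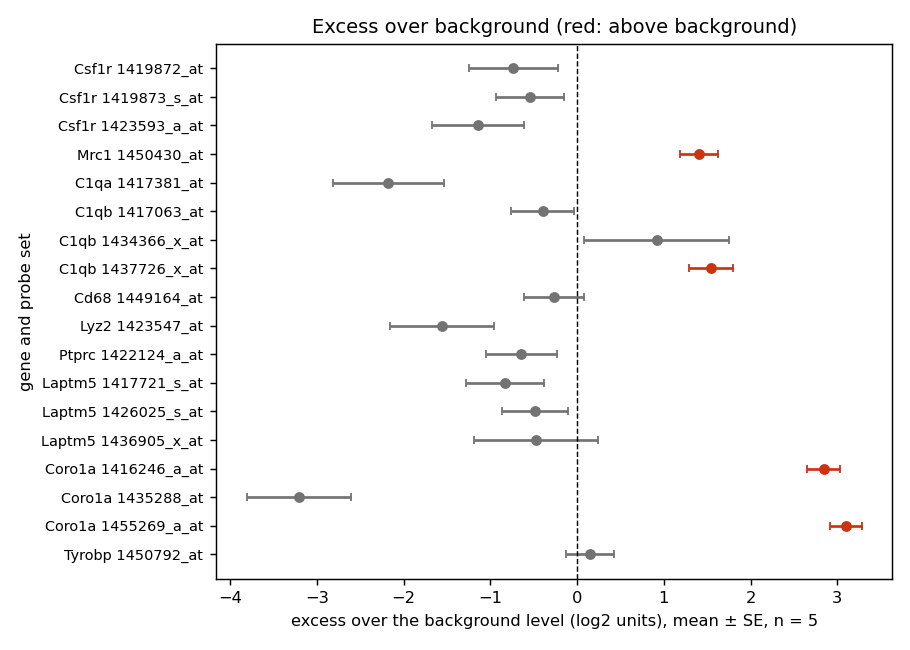
Excess over the background level in log2 units (horizontal axis), as the mean over 5 arrays ± limma's moderated SE, for each of the 18 probe sets. The dashed line is at the level, and red marks probe sets called above background. The 4 red points, from 1.40 to 3.10, belong to Coro1a, Mrc1 and C1qb, while the third Coro1a probe set lies at -3.21.

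The receptor gene Csf1r had 3 probe sets, none of them called. Probe set 1419872_at gave 30.8, 24.6, 13.8, 1.74 and 11.4 in replicates 1 to 5, above the level in replicates 1 and 2 only. Probe set 1419873_s_at gave 30.8, 6.51, 9.85, 14.5 and 14.1, above the level in replicate 1 only, and 1423593_a_at gave 11.6, 8.04, 23.6, 2.86 and 7.89, above it in replicate 3 only. No array was above the level by all 3 probe sets, and the excess ran from -1.14 ± 0.53 to -0.54 ± 0.39 (SE).

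The adaptor gene Tyrobp lay at the level itself. It gave 23.6, 20.4, 13.6, 24.3 and 27.1 in replicates 1 to 5, above the level in every array but replicate 3, with an excess of 0.15 ± 0.28 (SE; adjusted p = 0.554, limma). Its mean log2 signal was higher than that of 98.9% of the reference probe sets, yet the test did not separate it from the level. Tyrobp was not alone in this. By their probe set of largest excess, Cd68, Laptm5, Csf1r and Ptprc were higher than 98.3%, 97.2%, 96.6% and 95.5% of the reference. Lyz2 and C1qa were higher than 81.6% and 65.9%. Most genes that were not called thus stood above nearly all reference probe sets.

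C1qa, the A chain of C1q, gave 5.23, 4.75, 3.85, 2.30 and 6.30, below the level in all 5 arrays (excess -2.18 ± 0.64, SE). The C chain gene C1qc, at 4.08 ± 4.63 (SD, n = 5), was not called either (excess -2.92 ± 0.64, SE). Of the 3 chains that make up C1q, only C1qb was thus called, and by 1 of 3 probe sets.

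Lysosomal genes of phagocytes were not called. Cd68 gave 17.0, 12.9, 15.5, 8.71 and 35.7 in replicates 1 to 5, above the level in replicate 5 only (excess -0.26 ± 0.35, SE). Lyz2, which encodes the lysozyme of macrophages, gave 3.38, 4.70, 16.05, 3.77 and 12.2, below the level in every array (excess -1.56 ± 0.60, SE). Laptm5, a lysosomal protein of blood cells, had 3 probe sets with an excess from -0.83 ± 0.45 to -0.48 ± 0.72 (SE). They disagreed on the order of the arrays: 1436905_x_at gave 38.6, 28.3, 12.2, 1.18 and 32.0, with replicate 4 lowest, while 1417721_s_at gave 9.14, 15.5, 7.39, 22.9 and 6.13, with replicate 4 highest. The third, 1426025_s_at, ran from 7.45 in replicate 4 to 18.6 in replicate 5.

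Ptprc, the phosphatase CD45 of nearly all white blood cells, gave 15.4, 6.96, 16.1, 7.23 and 22.4, below the level in all 5 arrays (excess -0.65 ± 0.41, SE). Replicates 2 and 4 were lowest.

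Genes of the wider macrophage and leukocyte programme were mostly not called above background either. These lists, like the 10 genes, were drawn up with earlier results of these data known, and their counts are descriptions. Of 34 other macrophage genes measured, 4 were above background, or 11.8%, with a median excess of -1.33 log2 units. They were Lcp1, which encodes the actin-bundling protein plastin (406.6 ± 51.4, SD, n = 5; excess 4.39), the receptor gene Mertk, whose product takes up dying cells (60.4 ± 14.0; excess 1.62), the tetraspanin gene Cd53 (55.9 ± 11.7; excess 1.51) and the clotting factor gene F13a1 (49.8 ± 30.0; excess 1.15). Of the defining genes, each with its own probe set, Adgre1 (F4/80) stood at 10.48 ± 6.96, Cx3cr1 at 5.29 ± 4.29, Spi1 at 9.31 ± 5.40, Cd14 at 10.6 ± 4.97, Aif1 at 10.47 ± 6.08 and Itgam at 15.9 ± 6.62 (SD, n = 5), and none passed limma's test.

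Of 21 genes shared by most white blood cells, 2 were called, the ETS factor gene Fli1 (152 ± 49.1, SD, n = 5; excess 2.92), which endothelium also expresses, and Arhgdib (48.8 ± 12.1; excess 1.31). Of 12 genes of the colony-stimulating-factor and stem-cell-factor families, 2 were called, the ligand gene Kitl (97.4 ± 32.0; excess 2.28) and the receptor gene Csf2ra (35.3 ± 14.3; excess 0.78). The ligands of the Csf1r receptor were not among them: Csf1 stood at 11.02 ± 5.46 and Il34 at 6.19 ± 4.82 (SD, n = 5). The receptor gene Kit gave 18.5 ± 13.7 and was not called. Of 9 measured partners and kinases of the Tyrobp pathway, 0 were called by limma, and 0 had an unadjusted p below 0.05. Fcer1g, which encodes the other widespread ITAM adaptor of myeloid cells, came nearest: it gave 26.0, 8.67, 48.3, 18.9 and 64.0 in replicates 1 to 5, above the level in replicates 1, 3 and 5, with an excess of 0.47 ± 0.29 (SE; adjusted p = 0.115, limma). The list had 1 call, not 0, without replicate 2, without replicate 4, with the level at the 90th percentile and with a floor of 16. The receptor gene Trem2 stood at 7.72 ± 8.72 (SD, n = 5) and was not called.

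Complement genes other than the C1q A and B chains gave 3 of 12: C1qbp, whose product is a mitochondrial protein in most cells despite its name (617 ± 161, SD, n = 5; excess 4.97), the membrane inhibitor gene Cd59a (49.996 ± 14.3; excess 1.33) and the C1 inhibitor gene Serping1 (47.7 ± 17.1; excess 1.22). The called genes of this list, which leaves out the called C1qb, are thus a binding protein and inhibitors. Its C1 complex genes C1qc, C1ra and C1s1 were not called.

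Lysosomal genes of most cells stood in contrast. Of 15 measured, 14 were above background, or 93.3%, with a median excess of 2.91 log2 units. Among them were Laptm4b (1472 ± 517, SD, n = 5), a relative of Laptm5, and the membrane protein genes Lamp2 (1099 ± 71.5) and Lamp1 (646 ± 56.2), with the cholesterol carrier gene Npc2 (798 ± 65.0). Sequence relatives of the 10 genes were above background in 13 of 19 cases. The receptor phosphatase genes Ptprs (1848 ± 396) and Ptprf (965 ± 257), relatives of Ptprc, and the receptor gene Pdgfra (743 ± 71.4), a relative of Csf1r, were called. Lyz1, the near copy of Lyz2, was not (11.1 ± 8.81, SD, n = 5). Where probes match both copies the 2 genes cannot be told apart, and neither lysozyme gene was called above background.

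Other blood lineages were checked in the same way. Of 16 granulocyte and mast cell genes and 16 lymphocyte genes, 0 and 0 were called by limma, and 0 and 0 had an unadjusted p below 0.05. Of 10 megakaryocyte and platelet genes, 3 were called: the receptor gene Clec1b (106 ± 32.2, SD, n = 5; excess 2.42), and the platelet chemokine genes Pf4 (65.5 ± 24.2; excess 1.69) and Ppbp (30.3 ± 13.7; excess 0.56). Blood progenitor regulators gave 5 of 13, Myb (216 ± 34.2; excess 3.47), Gata2 (81.7 ± 12.8), Lmo2 (74.7 ± 12.7), Meis1 (54.6 ± 24.3) and Runx1 (32.2 ± 7.84). Red blood cell genes gave 7 of 14 and endothelial genes 8 of 15. All 4 of these shares were below the 54.1% of all genes. Of the defining genes of these lineages, Hbb-y, Hbb-bh1, Hba-x, Kdr, Tek and Pf4 were called, while Klf1, Pecam1, Cdh5, Itga2b and Gp9 were not.

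**Figure D3:**
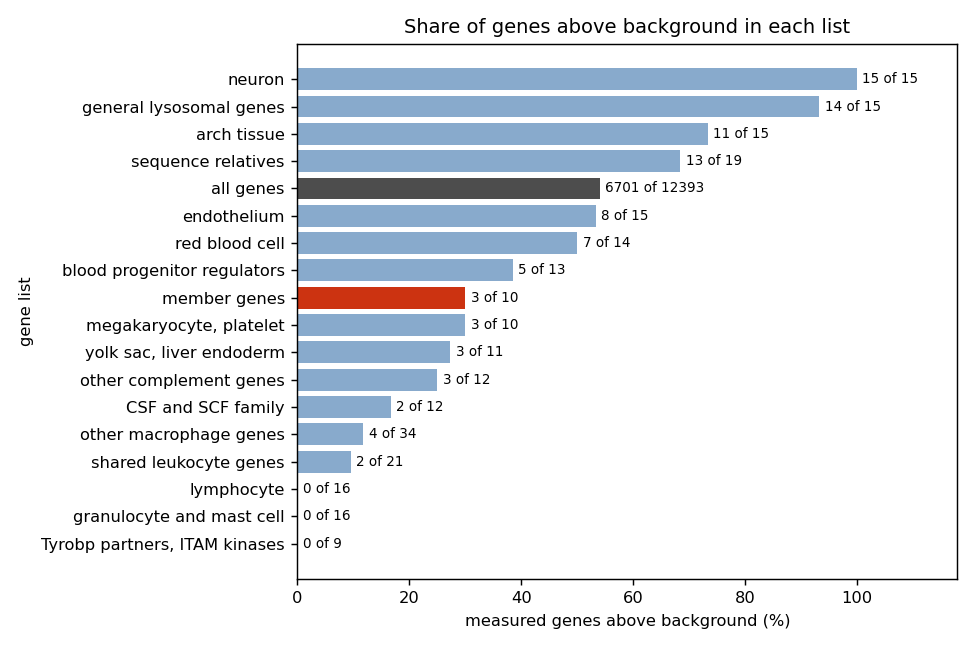
Percent of the measured genes of each list that were above background (horizontal axis, from 0), with the count beside each bar, the 10 genes in red and all genes in dark grey. The 10 genes stand at 3 of 10, other macrophage genes at 4 of 34, and lymphocyte and granulocyte genes at 0, while all genes stand at 6701 of 12393.

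The last comparison is between the 5 isolates. Replicate 4 held the lowest signal for 10 of the 18 probe sets. Over all probe sets that share was 19.4%, and over probe sets not above background it was 15.6%, while 8 of the 14 probe sets of the 10 genes that were not called were lowest there. Since probe sets of a gene measure the same RNA, the count was also made by gene, with each gene's probe sets averaged: Csf1r, C1qa, C1qb, Cd68, Laptm5 and Coro1a were lowest in replicate 4, 6 of 10 genes beside 19.0% of all genes. Most of these signals lie below the background level, where the order of arrays carries little information, and no test was made of the count. In the wider macrophage list 6 of 34 genes were lowest in replicate 4, and most of these 34 genes were not called either. The mean deviation of the 4 called genes of that list was lowest there too (-0.31, beside -0.14 to 0.41 in the other arrays). Of these genes only Lcp1 and F13a1 were lowest in replicate 4, while Mertk was lowest in replicate 5 and Cd53 in replicate 2. The mean deviation of the 2 called shared leukocyte genes was -0.05 in replicate 4 and lowest in replicate 5 (-0.08). Called genes of the colony-stimulating-factor and complement lists were highest in replicate 4 (0.71 and 0.37). The differences between the lists were not tested.

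Among the 3 genes above background, C1qb was 1.31 log2 units below its 5-array mean in replicate 4 (-1.31) and Coro1a 0.36 below (-0.36), while Mrc1 was lowest in replicate 2 (-0.74) and also low in replicate 4 (-0.38). Their mean deviation was 0.27, -0.11, 0.43, -0.68 and 0.10 in replicates 1 to 5. That of all genes above background lay between -0.05 and 0.03, which the common scaling of the arrays largely fixes. The RNA of replicate 4 differed in other ways. It was the 1 isolate with Xist signal (916 to 1595 over 3 probe sets, and 26.3 or less elsewhere). Eif2s3y, also a sex-linked gene, gave 20.1 there and 769 to 968 in the other arrays. Sex and isolate thus cannot be told apart for replicate 4. Red blood cell genes above background deviated by -0.59 in replicate 4, neuron genes by -0.43 and yolk sac and liver endoderm genes by -0.93, while endothelial genes stood at 0.25. The summed signal of the 14 red cell genes ran from 10770.3 in replicate 4 to 19630 in replicate 5, that of the 15 neuron genes from 4748 in replicate 4 to 8347 in replicate 3, and that of the 11 endoderm genes from 269 in replicate 4 to 1250.0 in replicate 5. No gene of these lists was listed at 0. The part of these differences in the low C1qb signal of replicate 4 was not tested.

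**Figure D4:**
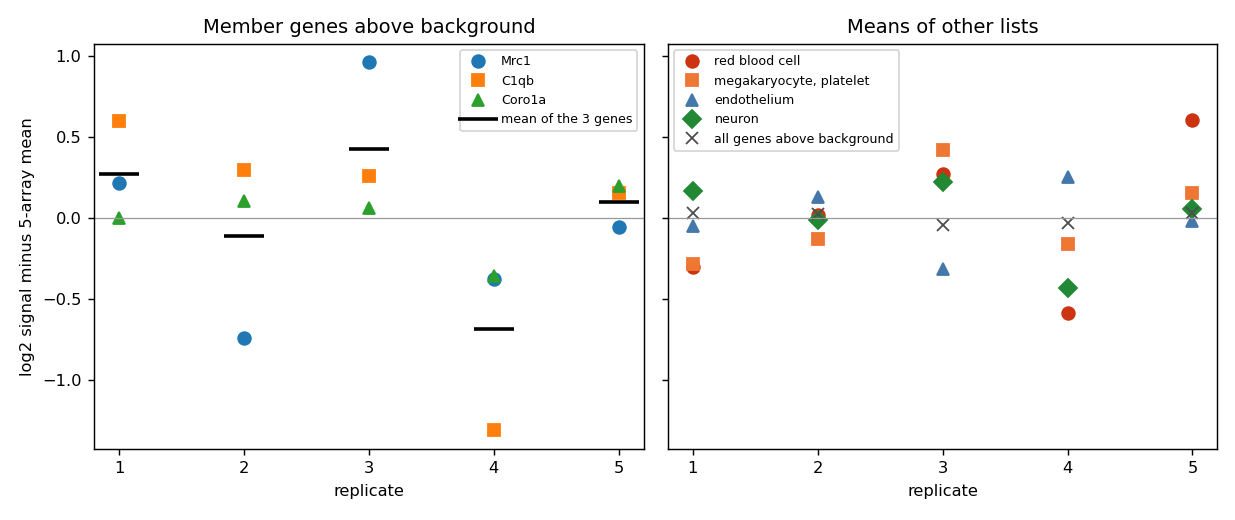
Log2 signal minus the 5-array mean (vertical axis) by replicate: on the left Mrc1, C1qb and Coro1a by their brightest probe set with black bars for their mean, and on the right the means of the genes above background in other lists. C1qb falls to -1.31 in replicate 4, and the red blood cell and neuron means are also lowest there, at -0.59 and -0.43.

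Among other genes named above, F13a1 and Pf4 followed a like order over the arrays, chosen here after their values were seen. F13a1 gave 38.8, 26.1, 87.6, 21.2 and 75.5 in replicates 1 to 5 and Pf4 gave 51.4, 55.2, 95.04, 39.0 and 87.0, each highest in replicates 3 and 5 and lowest in replicate 4. This order was not particular to these genes. Mean deviations in replicates 3, 4 and 5 were 0.27, -0.59 and 0.61 for called red blood cell genes. For called yolk sac and liver endoderm genes they were 0.03, -0.93 and 1.23. The megakaryocyte mean was lowest in replicate 1 (-0.28) and the endothelial mean highest in replicate 4 (0.25). Mrc1 shared the high value in replicate 3 but not in replicate 5.

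Whether any probe set varied between isolates by more than probe sets of like signal was tested by setting its variance against limma's trend. Of the 18 probe sets, 6 had a mean above the level and could be tested, and 1 was called, C1qb 1434366_x_at, whose variance was 17.3-fold that of the trend (limma F test, adjusted p = 0.0429). Of all 12792 probe sets tested, 29 were called, or 0.227%. The call was lost without replicate 3, without replicate 4 and without replicate 5, with 0 calls each, and with other settings of the fit. The other x-type C1qb probe set had 4.02 times the trend (unadjusted p = 0.0285, adjusted p = 0.862, limma F test). This makes 2 of 6 with an unadjusted p below 0.05, beside 5.28% of all tested. The remaining probe sets ran from 0.48 to 2.80 times with an unadjusted p above 0.05. Both bright Coro1a probe sets were among the steady ones, at 0.94 and 0.48 times the trend.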

How the data were processed

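RNA of 5 isolates of 1 group was measured on 1 array each. The deposited values are linear intensity values, 1 per probe set and array. GCOS, Affymetrix's operating software, is named in the submitters' processing notes; version, algorithm and settings were not given in the sources used here. Each array's mean after leaving out the lowest and highest 2% was 149.98, so the arrays had been scaled to 1 target. The 64 control probe sets were left out of the tests. Of 22626 others, 20380 had 1 gene, 691 several and 1555 none in the platform annotation, with symbols updated through the Entrez ID (20351 matched a RefSeq table).

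Log2 was taken of signals with a floor of 1. Detection used limma 3.58.1 in R 4.3.3, an intercept fit with trend and robust eBayes on log2 signal minus the array's background level, one-sided, with Benjamini-Hochberg adjustment over all 22626 probe sets. The level is treated as known, so its own error is not in the p-values. The variance test set each probe set's variance against the robust trend. Both tests were checked on simulated data with independent normal noise at limma's trend and a known level. Of seeded excesses of 0.5 and 1 log2 units, 47% and 99% were recovered. Of seeded SDs of 3 and 6 times the trend, 65% and 95.5% were. Such data hold no array effects and no error of the level, so the check does not cover these. The number of arrays limits precision.

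The genes, the lists and the background families were chosen with earlier results of these data known. Named beside the 10 genes were, per list, up to 4 called genes of largest excess and a preset group of defining genes. Lists of neuron, red cell, endothelial, endoderm and arch genes were used for counts and sums. Alternatives were other levels, a floor of 16, quantile normalization, a plain fit, a low-value filter, plain probe sets alone, other gene calls and leaving out each replicate. All arrays bear 1 date in the labels, so no batch was compared. Promoters came from the RefSeq table; the motif search read both strands.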

Additional observations from a re-analysis of the deposited data

Results flagged for a closer look

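Of 19 values tested for a sample far from the other 4, 2 stood out, both C1qb in replicate 4. The test was Dixon's ratio of gap to range, taken on log2 signals for the probe sets, with a critical value of 0.71. The ratio was 0.862 for 1434366_x_at and 0.766 for 1437726_x_at. A log2 scale widens gaps between low signals, and both values in replicate 4 lay below its background level of 22.8. Probe set 1434366_x_at gave 3.96 there and 51.9 to 78.4 in the other arrays, and 1437726_x_at gave 22.6 there and 62.3 to 84.9 elsewhere. Both probe sets measure the same gene, so they are not independent. Chance alone marks about 1 in 20 groups of values, and 8.54% of all probe sets had such a sample. The third C1qb probe set, with 12.7 in replicate 4 and 10.98 to 18.4 elsewhere, had none.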

How the results depend on the processing

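The same 3 genes, Coro1a, Mrc1 and C1qb, were above background in all alternatives but 2. Only 1 gene remained at the stricter level (Coro1a, 1 of 18 probe sets) and with plain probe sets alone (Mrc1, 1 of 8 probe sets, the plain ones among the 18). At the stricter level the excess turned to -1.05 for Mrc1 and -0.91 for C1qb 1437726_x_at. Without each replicate in turn the number of called genes was 3 throughout, and that of probe sets ran from 4 to 5. The size of the p-values depended on the fit: for Coro1a 1455269_a_at the adjusted p was 1.63e-18 in the main fit and 7.49e-06 in the plain fit (limma). Over the lists beside the 10 genes, 87 of 232 measured genes were called, 45 at the stricter level and 84 to 89 without each replicate. The 1 probe set called for variance fell to 0 at the stricter level, with the floor of 16, with a plain fit and with plain probe sets alone, and ran from 0 to 1 without each replicate; the cause was not tested. The other macrophage list had 4 calls, 7 with the level at the 90th percentile and 1 at the stricter level. The mean deviations of the called genes moved by less than their SD over the arrays in every alternative run, but at the stricter level, where they rest on Coro1a alone, they were -0.0029, 0.11, 0.06, -0.36 and 0.19 in replicates 1 to 5, so that replicates 1 and 2 changed sign. No paired analysis was possible because all samples belong to 1 group. Signals near or below the background level limit every statement on the 7 genes that were not called.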
